A study of Mus musculus with 21 samples.

Results

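The genes described here are the chemokines and their receptors, 57 of the 56691 genes in the deposited table. They were chosen by name alone: CC ligands, CXC ligands, *Cx3cl1*, *Xcl1*, the CC and CXC receptors and the atypical receptors (*Ackr1* to *Ackr4*). Of these, 39 encode ligands and 18 encode receptors. Chemokines are small secreted proteins that guide leukocytes along gradients, and their classical receptors are G protein-coupled receptors that set off cell migration. Atypical receptors bind the same ligands without this migration signal and take them up or carry them across endothelium. Inflammatory chemokines are made on demand by activated stromal cells and leukocytes, whereas homeostatic chemokines such as *Cxcl12* and *Ccl21a* are made in resting tissue, where *Ccl21a* is known as a product of lymphatic endothelium and *Cxcl12* of stromal and endothelial cells.

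RNA was sequenced from mouse hearts in 4 groups, and the numbers of libraries were 5 in Control, 5 in DOX, 6 in Tb and 5 in Tb-DOX. Control and Tb mice received no doxorubicin (DOX), an anthracycline with known cardiotoxicity, and were the saline-treated groups of the study. DOX and Tb-DOX mice received 5 mg/kg DOX into the peritoneum each week for 3 doses. Tb and Tb-DOX mice carried a subcutaneous tumor of 4T1, a murine breast cancer line, so that the model rests on 1 tumor line outside the heart. Strain, sex and age are not given in the sources used here, and nothing in the labels says whether each library is a separate animal, so the p-values measure the spread between these libraries. The labels name the tumor line as the source of every library, while the study describes hearts. The summed level of 6 cardiomyocyte markers was 39021 to 75239 CPM (counts scaled by the library total, with TMM, a correction for composition), and that of 6 epithelial and tumor cell markers was at most 4.72 CPM. Total counts per library were 13521200 to 18601445. Tb replicate 5 stood apart, with the lowest array weight (0.125, against 0.393 or more in the others), and DOX replicate 4 held T cell markers at 313 CPM, against at most 47.0 in any other library. Where leaving out either library moved a tested member across the threshold, this is said beside its value.

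The chemokine genes with the highest level in Control hearts, in FPKM (counts scaled by exonic length and library total), were *Ccl21a* at 30.6 ± 5.74, *Cxcl12* at 20.4 ± 2.32 and *Ackr3* at 19.6 ± 2.67 (mean ± SD, n = 5). *Ccl21a* attracts CCR7-bearing lymphocytes and dendritic cells, *Cxcl12* is the ligand of CXCR4, and *Ackr3* is an atypical receptor that removes CXCL12. *Cxcl12* and *Ackr3* did not differ beyond their spread in this order. The next levels were lower, with *Ccl6* at 4.31, *Cxcr4* at 2.81, *Cxcl14* at 2.63, *Ccl9* at 2.45, *Cxcl16* at 2.32 and *Ccl12* at 2.04 FPKM. A mean of at least 0.5 FPKM over the 21 libraries was required for testing, and 24 members passed, 18 of the 39 ligands and 6 of the 18 receptors. A further 28 members had counts below that level, and 5 (*Ccl1*, *Ccl20*, *Ccl21b*, *Ccl21d* and *Ccl27b*) had 0 counts in every library. The 3 CXCR3 ligands, *Cxcl9*, *Cxcl10* and *Cxcl11*, which are induced by interferon and attract activated T cells, reached at most 15 counts in any library. *Ccl5*, another T cell attractant, reached at most 8. *Cxcl9* had 5 to 10 counts in Control, 0 to 4 in DOX, 3 to 15 in Tb and 0 to 5 in Tb-DOX, and with no filter in edgeR neither DOX against Control (unadjusted p = 0.0478, adjusted p = 0.181) nor Tb-DOX against Tb (unadjusted p = 0.00650, adjusted p = 0.158) passed the threshold, although its Control and DOX groups did not overlap. For the members at 0, a count of 0 allows up to 3 counts per library. *Ccl21b* and *Ccl21d* are near-identical copies of *Ccl21a*, so how the counting assigned their shared reads limits the values of all of them.

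Many members lie side by side in the genome, and coordinates are given as in the table (GRCm39 by the submitters' processing notes). The monocyte-attracting ligands *Ccl2*, *Ccl7*, *Ccl12* and *Ccl8*, with the eotaxin *Ccl11* among them, span chromosome 11 from 81926397 (start of *Ccl2*) to 82007625 (end of *Ccl8*). *Ccl5*, *Ccl9*, *Ccl6*, *Ccl3* and *Ccl4* follow on chromosome 11 from 83416604 to 83555509. The neutrophil-attracting ligands *Cxcl5*, *Cxcl3*, *Cxcl15*, *Cxcl1* and *Cxcl2* lie on chromosome 5 from 90907219 to 91053797. *Ccl21a* is on the minus strand of chromosome 4, from 42772860 to 42773993. *Ackr4*, on the minus strand of chromosome 9 from 103961356 to 104004132, overlaps the span of *Acad11* on the other strand, and *Cxcl16* that of *Zmynd15*, also on the other strand. The strand setting of the counting is not given in the sources used here, so reads of these overlapping pairs may not have been told apart.

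DOX lowered 8 of the tested chemokine genes in hearts without tumor, among them the most abundant ones. *Ccl21a* fell 5.11-fold, the atypical receptor *Ackr4* fell 6.98-fold, the CXCL12 receptor *Cxcr4* fell 2.71-fold and the eotaxin *Ccl24* fell 6.08-fold. *Cxcl12*, its scavenger *Ackr3*, *Cxcl16* and the monocyte attractant *Ccl12* were also lower, whereas *Ccl6* and the atypical receptor *Ackr2* were higher. With edgeR's quasi-likelihood test and Benjamini-Hochberg adjustment over 13990 genes, 10 of 24 tested members changed between DOX and Control at an adjusted p under 0.05 (2 higher, 8 lower). This is 41.7%, where 36.2% of all genes tested passed, so the share of members was near the background. Of all genes tested, 2523 were higher and 2548 lower. The median log2 fold change was −0.29 over the tested members and near 0 (0.002) over all genes. In bulk tissue, fewer cells of a type and less RNA per cell cannot be told apart.

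*Ccl21a* had counts of 438, 493, 447, 317 and 316 in Control and of 89, 42, 59, 80 and 80 in DOX. All DOX libraries lay below all Control libraries, by a log2 fold change of −2.35 ± 0.22 (SE, adjusted p = 6.05e-07). *Ackr4*, a scavenger of CCL19, CCL21 and CCL25, had counts of 90, 84, 82, 94 and 73 in Control and of 15, 10, 7, 10 and 12 in DOX. These groups did not overlap either, and the log2 fold change was −2.80 ± 0.47 (adjusted p = 0.000136). *Acad11*, the gene across from *Ackr4*, was also lower in DOX, by a smaller log2 fold change of −0.68 (adjusted p = 0.0103). The markers of lymphatic endothelium, summed over 5 genes, were at 122 to 150 CPM in Control and 135 to 225 CPM in DOX. Among the 5, *Prox1* was higher (log2 fold change 0.56, adjusted p = 0.0284) and *Pdpn* lower (−0.98, adjusted p = 0.0178), and *Flt4*, *Mmrn1* and *Reln* did not pass the threshold. The part of lymphatic endothelium in the lower *Ccl21a* was not tested.

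**Figure D1:**
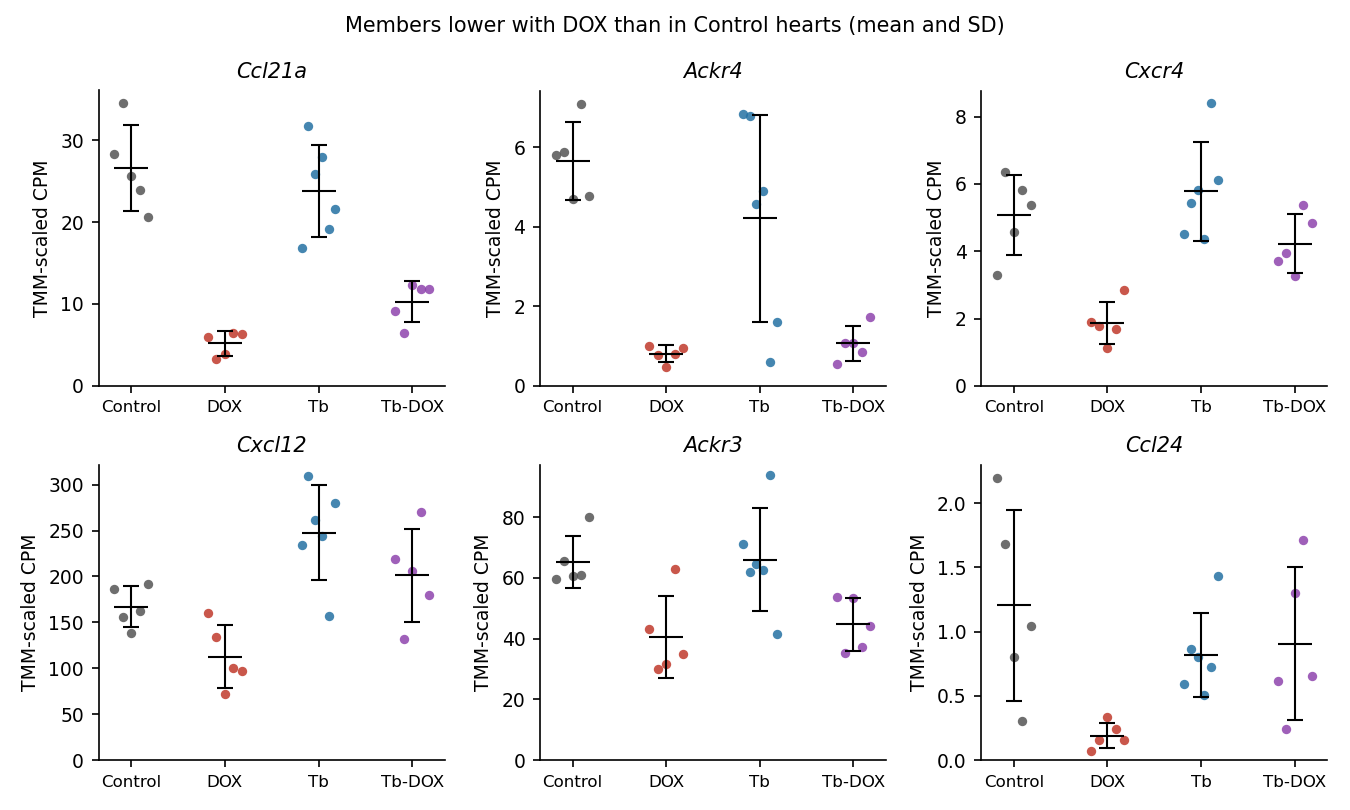
Level of 6 members in every library of the 4 groups, in TMM-scaled CPM on a linear axis from 0 (points: libraries, bars: mean and SD). *Ccl21a*, *Ackr4* and *Cxcr4* in the 5 DOX libraries lie below all 5 Control libraries, while *Cxcl12*, *Ackr3* and *Ccl24* overlap, and *Ackr4* in Tb splits into 4 high and 2 low libraries.

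The CXCL12 axis, which holds leukocytes and progenitors in tissue and acts in vessel growth, was lower at the ligand and both receptors. *Cxcr4* had counts of 51, 91, 80, 77 and 82 in Control and of 28, 23, 17, 21 and 36 in DOX, with no overlap in CPM (log2 fold change −1.44 ± 0.25, adjusted p = 0.000165). *Ackr3* had counts of 925, 937, 1059, 806 and 1225 in Control and of 639, 389, 476, 781 and 439 in DOX. Its groups overlapped through DOX replicate 4, and its log2 fold change was −0.69 ± 0.20 (adjusted p = 0.00987). *Cxcl12* had counts of 2895, 2233, 2427, 2150 and 2934 in Control and of 2372, 1731, 1080, 1247 and 1221 in DOX. Its log2 fold change of −0.57 ± 0.20 (adjusted p = 0.0317) was the smallest among the 8 lower members, and it was not past the threshold without Control replicate 1, Control replicate 5, DOX replicate 3, DOX replicate 4 or DOX replicate 5 (adjusted p up to 0.0964). *Cxcl16*, which attracts CXCR6-bearing T cells and also acts as a scavenger receptor, had counts of 102, 79, 138, 95 and 116 in Control and of 77, 36, 71, 52 and 28 in DOX. Its groups did not overlap in CPM (log2 fold change −0.85 ± 0.25, adjusted p = 0.0107), and *Zmynd15*, which overlaps it, was lower as well (log2 fold change −1.70, adjusted p = 0.00124).

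Markers of several cell types moved with these members between Control and DOX. All 5 tested erythroid markers were lower, and the list summed to 204 to 797 CPM in Control and 4.73 to 132 CPM in DOX. B cell markers summed to 10.8 to 20.7 CPM in Control and 2.18 to 5.82 CPM in DOX, with no overlap, while cardiomyocyte markers were at 45506 to 61353 CPM in Control and 64998 to 75239 CPM in DOX, again with no overlap. The summed fibroblast markers overlapped (1049 to 1366 and 888 to 1431 CPM), but *Col1a1* (log2 fold change −2.19), *Col1a2* (−2.12) and *Lum* (−2.21) were lower and *Pdgfra* (0.44) was higher. T cell markers summed to 1.58 to 2.98 CPM in Control and 5.88 to 313 CPM in DOX. Neutrophil markers summed to 2.75 to 4.75 CPM in Control and 7.71 to 59.5 CPM in DOX. Dendritic cell markers were at 29.2 to 37.6 and 23.5 to 26.4 CPM, and mural cell markers at 821 to 898 and 964 to 1145 CPM. These ranges did not overlap either. The part of all these cells in the lower or higher chemokine genes was not tested.

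The remaining calls between DOX and Control rested on lower counts or wider spread. *Ccl24*, an eosinophil attractant made by resident macrophages, had counts of 34, 24, 14, 4 and 16 in Control and of 1, 2, 5, 3 and 2 in DOX. Control replicate 4 overlapped with the DOX libraries, and the log2 fold change was −2.60 ± 0.58 (adjusted p = 0.00157). *Ccl12* had counts of 11, 8, 11, 28 and 23 in Control and of 13, 4, 3, 1 and 0 in DOX, where DOX replicate 1 lay within the Control range. Its log2 fold change was −1.82 ± 0.64 (adjusted p = 0.0314), −2.80 without DOX replicate 1, and not past the threshold without Control replicate 4 or 5 or without any 1 of DOX replicates 2 to 5 (adjusted p up to 0.0989). *Ccl8*, its neighbor in the gene cluster, had a similar log2 fold change of −1.87 ± 0.74 that just missed the threshold (adjusted p = 0.0515; 0.0486 without Tb replicate 5). The summed level of 9 macrophage markers was 127 to 155 CPM in Control and 56.1 to 107 CPM in DOX, and 6 of the 9 were lower. Their part in the lower *Ccl24* and *Ccl12* was not tested.

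The 2 increases with DOX were small. *Ackr2*, a scavenger of inflammatory CC chemokines, had counts of 24, 16, 28, 11 and 15 in Control and of 29, 25, 39, 42 and 25 in DOX. The groups did not overlap in CPM (log2 fold change 0.95 ± 0.34, adjusted p = 0.0311), but the call was lost without Control replicate 2, 4 or 5 or without DOX replicate 3 or 4 (adjusted p up to 0.0875). *Ccl6*, a CCR1 ligand made by myeloid cells, had counts of 181, 117, 124, 61 and 109 in Control and of 305, 219, 224, 208 and 66 in DOX, where DOX replicate 5 lay within the Control range and the others above it. Its log2 fold change was 0.94 ± 0.37 (adjusted p = 0.0476), and the call held in only 7 of the 21 fits that each left out 1 library, lost without any 1 of Control replicates 2 to 5, DOX replicates 1 to 4, Tb replicates 2 to 4 or Tb-DOX replicates 1 to 3 (adjusted p up to 0.114). With library totals in place of TMM, neither *Ackr2* (adjusted p = 0.0854) nor *Ccl6* (adjusted p = 0.105) passed. Without DOX replicate 3, or without DOX replicate 4, 6 members passed the threshold in all. Of the 24 tested members, 5 had groups that did not overlap (*Ackr2*, *Ackr4*, *Ccl21a*, *Cxcl16* and *Cxcr4*), where 25.3% of all genes tested did.

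**Figure D2:**
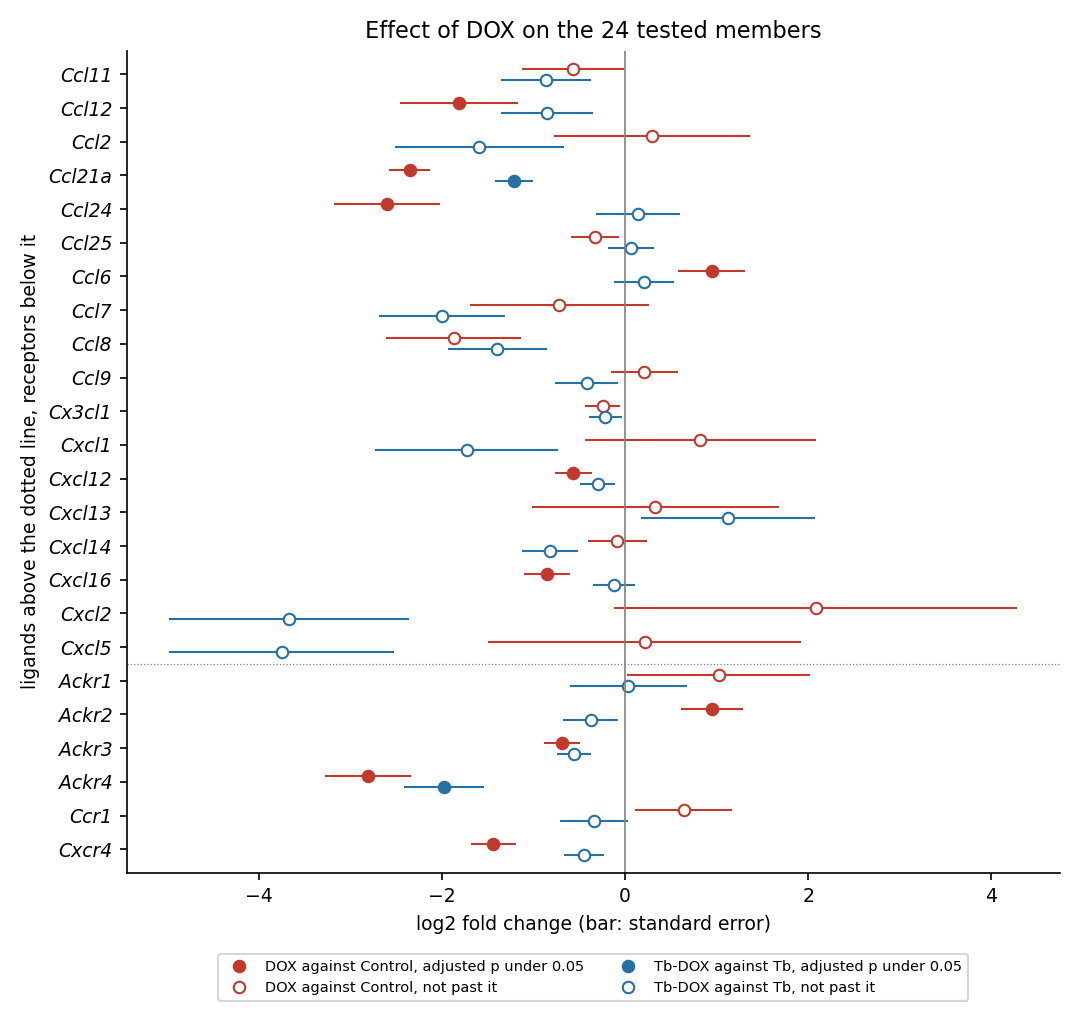
Log2 fold change with DOX of the 24 tested members without tumor (red, DOX against Control) and with tumor (blue, Tb-DOX against Tb), with bars for the standard error and filled points for an adjusted p under 0.05. There are 10 filled red points, 8 of them below 0, and 2 filled blue points, *Ccl21a* and *Ackr4*, both below 0.

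In tumor-bearing hearts, DOX lowered *Ccl21a* and *Ackr4*, and no other tested member passed the threshold in either direction. The 2 members are 8.33% of the 24 tested, where 4.72% of all genes tested passed (305 higher, 355 lower), and 8 members had an unadjusted p under 0.05 in edgeR. *Ccl21a* counts ran from 256 to 551 in Tb (median 397.5, n = 6) and were 162, 107, 170, 206 and 197 in Tb-DOX. All Tb-DOX libraries lay below all Tb libraries in CPM, the 1 member for which groups did not overlap, where 4.96% of all genes tested did not. The log2 fold change was −1.21 ± 0.20 (adjusted p = 0.00221), a 2.32-fold decrease. *Ackr4* counts were 104, 102, 74, 97, 10 and 28 in Tb and 10, 18, 15, 15 and 29 in Tb-DOX, so that Tb replicates 5 and 6 lay at the level of the DOX-treated hearts. These 2 libraries had the highest summed neutrophil markers of the series (5518 and 4785 CPM), whose part in the low *Ackr4* was not tested. The log2 fold change was −1.98 ± 0.43 (adjusted p = 0.0129), or −2.20 (adjusted p = 0.000579) without Tb replicate 5, and *Ackr4* missed the threshold when only Tb and Tb-DOX entered the fit (adjusted p = 0.0707). *Ackr3* had a log2 fold change of −0.56 ± 0.19 (adjusted p = 0.0920), which passed without DOX replicate 4 (adjusted p = 0.0460) but not without Tb replicate 5 (−0.43, adjusted p = 0.167), and *Cxcr4* of −0.45 ± 0.22 (adjusted p = 0.256). The 5 erythroid markers were all lower here too, and the list summed to 370 to 832 CPM in Tb and 2.47 to 28.9 CPM in Tb-DOX; their part in these values was not tested. The count of 2 was 5 without Tb replicate 6 or without Tb-DOX replicate 4.

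The test of whether the DOX effect differed with the tumor (interaction: the change from Tb to Tb-DOX minus the change from Control to DOX) passed for *Ccl21a* and *Ccl24*, both higher, that is, less lowered by DOX in tumor-bearing hearts. These are 2 of 24 members, 8.33%, where 8.94% of all genes tested passed (552 higher, 699 lower; 8.70% with the filter on counts described further on, which also called *Ccr10*), so the share of members was near the background. For *Ccl21a* the difference was 1.14 ± 0.30 (log2, adjusted p = 0.0247), and it missed the threshold without DOX replicate 3 (adjusted p = 0.0506). *Ccl24* counts were 9 to 25 in Tb (median 12.5, n = 6) and 11, 4, 18, 30 and 11 in Tb-DOX, and the change between them was 0.14 ± 0.46, against −2.60 without tumor. Its interaction was 2.75 ± 0.74 (log2, adjusted p = 0.0286), and it missed the threshold without Control replicate 1 or 2 or Tb-DOX replicate 3 or 4 (adjusted p up to 0.0539). *Cxcr4* came close, at 0.99 ± 0.33 (adjusted p = 0.0585), and passed without Control replicate 1, DOX replicate 5 or Tb replicate 5. *Ackr2* had the opposite sign, at −1.32 ± 0.45 (adjusted p = 0.0645), and passed without Tb replicate 1 or 3. *Ackr4* had an interaction of 0.83 ± 0.63 (adjusted p = 0.393), which neither shows a difference between the 2 settings nor that there is none.

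The tumor raised chemokine genes in saline-treated hearts and lowered none of those tested. *Ccr1*, a receptor of neutrophils and monocytes, rose 26.9-fold, and *Ccl6*, one of its ligands, rose 3.68-fold. The monocyte attractant *Ccl7*, the atypical receptors *Ackr1* and *Ackr2* and the neutrophil attractants *Cxcl1*, *Cxcl2* and *Cxcl5* were higher as well, the last 3 past the threshold only with a single library. In total 8 of 24 tested members were higher and 0 lower in Tb than in Control by edgeR, where 6.28% of all genes tested passed (699 higher, 180 lower). DESeq2 called 7 higher and 0 lower. It did not call *Cxcl1*, *Cxcl2* or *Cxcl5*, and it called *Ccl9* and *Cxcl12*, which edgeR did not. In edgeR 13 members had an unadjusted p under 0.05. The count of 8 was 5 without Control replicate 3, 4 or 5. The median log2 fold change of the members was 1.04, against −0.008 over all genes.

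*Ccr1* had counts of 31, 30, 11, 11 and 14 in Control and of 184 to 1055 in Tb (median 464, n = 6). No Tb library overlapped with Control, and the log2 fold change was 4.75 ± 0.49 (adjusted p = 8.85e-07), or 4.49 (adjusted p = 5.58e-07) without Tb replicate 5. *Ccl6* counts were 187 to 924 in Tb (median 428), again above all Control libraries in CPM, with a log2 fold change of 1.88 ± 0.36 (adjusted p = 0.00146). *Ccl7* counts were 4 to 13 in Control and 15 to 314 in Tb (median 38.5), and the log2 fold change of 3.29 ± 0.77 (adjusted p = 0.0101) became 2.04 (adjusted p = 0.0324) without Tb replicate 5. These 3 genes were those whose groups did not overlap, where 6.18% of all genes tested did not.

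*Ackr1*, the Duffy antigen receptor of venular endothelium and erythroid cells, had counts of 10, 5, 0, 0 and 2 in Control and of 5 to 163 in Tb (median 26.5). Its log2 fold change was 3.64 ± 0.85 (adjusted p = 0.00984), 2.71 without Tb replicate 5 (adjusted p = 0.0278) and 4.54 without Control replicate 1. None of 5 tested erythroid markers passed in this comparison by edgeR (0 at an unadjusted p under 0.05, 0 by DESeq2). *Ackr2* counts were 23 to 109 in Tb (median 53.5), with a log2 fold change of 1.39 ± 0.32 (adjusted p = 0.00860). *Cxcl12* was 2588 to 4885 counts in Tb (median 4448), and its log2 fold change of 0.57 ± 0.19 missed the threshold (adjusted p = 0.0903) but passed it without Tb replicate 5 (0.67, adjusted p = 0.0285). *Ccl8* (1.62 ± 0.56, adjusted p = 0.0944) and *Ccl9*, a CCR1 ligand (0.99 ± 0.35, adjusted p = 0.104), had positive values that missed the threshold. *Ccl8* passed with array weights (adjusted p = 0.00740) and without Control replicate 2 (adjusted p = 0.0437). *Ccl9* passed with DESeq2, with array weights, with only the groups compared and without DOX replicate 5 (adjusted p down to 0.0278).

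Neutrophil markers moved with these members. The summed level of 10 neutrophil markers was 2.75 to 4.75 CPM in Control, 7.71 to 59.5 in DOX, 592 to 5518 in Tb and 883 to 3703 in Tb-DOX, and all 10 were higher in Tb than in Control. Tb replicate 1 had the lowest sum of its group and the lowest *Ccr1* (12.1 CPM), and Tb replicates 5 and 6 had the highest sums and the highest *Ccr1* (63.8 and 59.6 CPM). The 5 monocyte markers summed to 27.6 to 39.6 CPM in Control and to 37.8 to 153 CPM in Tb. The part of these cells in the *Ccr1* and *Ccl6* differences was not tested.

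**Figure D3:**
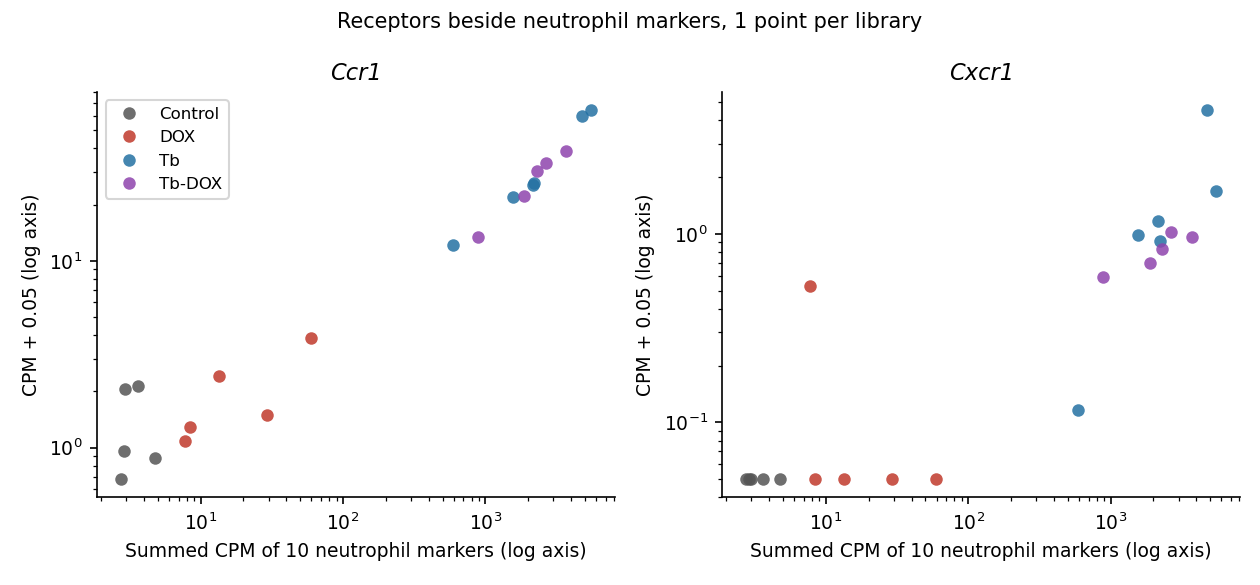
*Ccr1* (left) and *Cxcr1* (right) against the summed level of 10 neutrophil markers, both in CPM on log axes with 0.05 added to the receptor, 1 point per library. Tumor-bearing libraries lie at 592 CPM of markers or above, with *Ccr1* at 12.1 CPM or above, and libraries without tumor lie at 59.5 CPM of markers or below.

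The neutrophil attractants were high in 1 tumor-bearing heart. *Cxcl1*, which acts with *Cxcl2* and *Cxcl5* on CXC receptors of neutrophils, had counts of 20, 17, 14, 26 and 20 in Control and of 15, 39, 50, 41, 2323 and 50 in Tb. *Cxcl2* counts were 4, 0, 0, 0 and 1 in Control and 0, 0, 10, 9, 508 and 8 in Tb. *Cxcl5* counts were 8, 3, 6, 3 and 2 in Control and 9, 6, 18, 16, 755 and 5 in Tb. In all 3, Tb replicate 5 was far above every other library. Of the other 5 Tb libraries, 4 lay above all Control libraries for *Cxcl1* (2.07 to 3.09 CPM, against at most 1.96), 3 for *Cxcl2* (0.455 to 0.618 CPM, against at most 0.258) and 3 for *Cxcl5* (0.590 to 1.11 CPM, against at most 0.516), and the rest lay within the Control range or at 0. The monocyte attractant *Ccl2* (580 counts, other Tb libraries 13 to 30), *Cxcl3* (18 counts, others 0 or 1) and the cytokine *Il6* (1645 counts, others 4 to 16) were highest in the same library. With it, the log2 fold changes against Control were 4.28 ± 1.19 for *Cxcl1* (adjusted p = 0.0335), 6.19 ± 1.70 for *Cxcl2* (adjusted p = 0.0311) and 4.78 ± 1.36 for *Cxcl5* (adjusted p = 0.0377). Without it they were 0.84 (adjusted p = 0.538), 2.13 (adjusted p = 0.417) and 1.14 (adjusted p = 0.562), and 6 members passed in all. These 3 calls were also lost without single Control libraries: without any 1 of the 5 for *Cxcl1* and *Cxcl5*, and without Control replicate 2, 3, 4 or 5 for *Cxcl2*, whose value was 7.77 without Control replicate 1. *Ccl2* did not pass with Tb replicate 5 (2.56 ± 0.99, adjusted p = 0.143), and its value without it was −0.08 (adjusted p = 0.971).

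**Figure D4:**
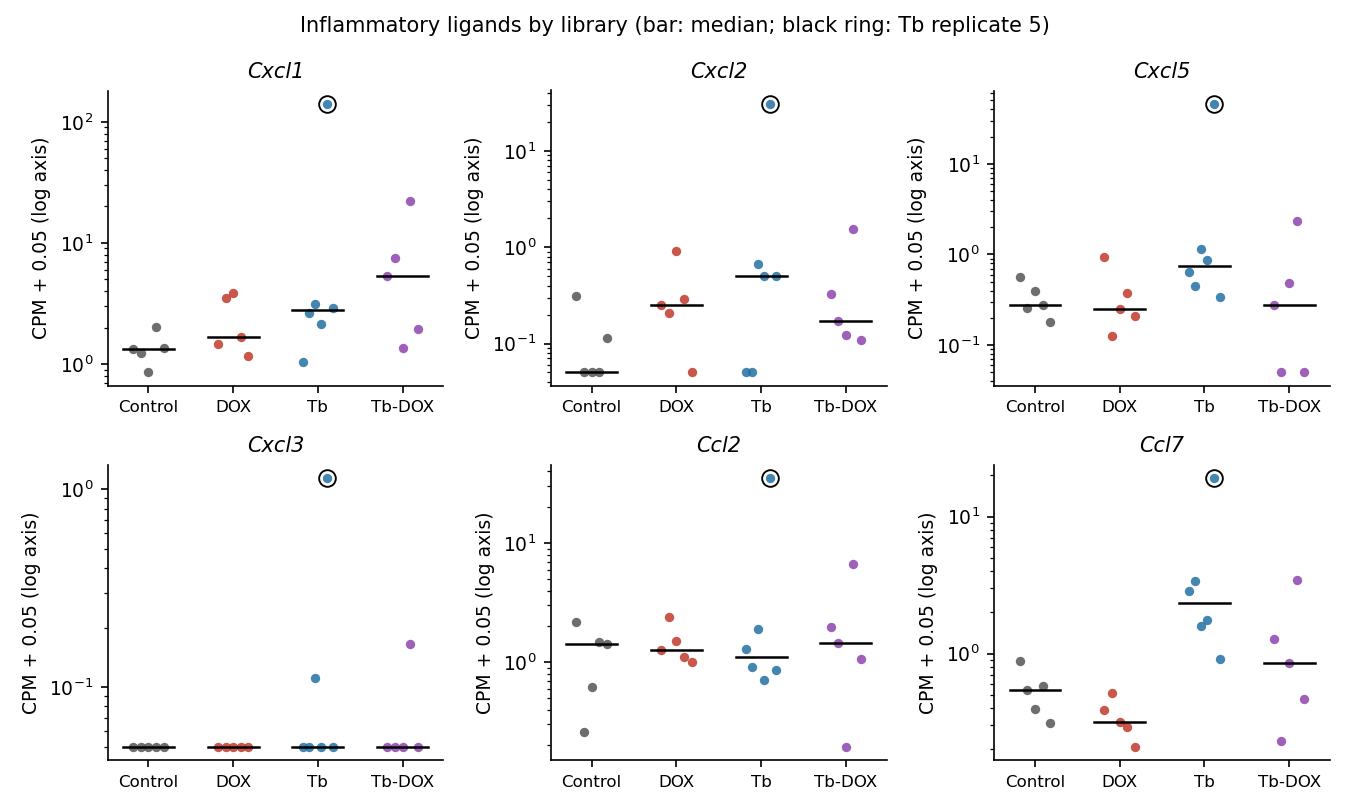
Level of 6 inflammatory ligands in every library, in CPM plus 0.05 on a log axis, with a bar at the group median and a black ring around Tb replicate 5. The ringed library is the highest in all 6 panels, and Tb-DOX replicate 4 is the highest of its group in each.

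Tb-DOX replicate 4 showed the same genes at a lower level, with 385 counts of *Cxcl1*, 115 of *Ccl2*, 59 of *Ccl7*, 40 of *Cxcl5* and 26 of *Cxcl2*. The Tb-DOX counts of *Cxcl1* were 94, 123, 18, 385 and 32. Between Tb-DOX and Tb, *Cxcl1* had a log2 fold change of −1.73 ± 1.00 (adjusted p = 0.343) with Tb replicate 5 and of 1.71 (adjusted p = 0.0634) without it, so its sign turned on that library. *Ccl2* changed sign too, from −1.59 (adjusted p = 0.344) to 1.04 (adjusted p = 0.330), and *Cxcl2* from −3.67 (adjusted p = 0.110) to 0.39 (adjusted p = 0.858). *Cxcl5* went from −3.75 (adjusted p = 0.0817) to −0.10 (adjusted p = 0.960) and *Ccl7* from −1.999 (adjusted p = 0.0970) to −0.75 (adjusted p = 0.421). None of these values passed the threshold, with or without Tb replicate 5. Tb-DOX replicate 4 moved them the other way: without it *Ccl7* was −2.87 and *Cxcl5* −5.63, and these 2 genes passed as lower in Tb-DOX without that library or without Tb replicate 6 (adjusted p down to 0.0371 and 0.0448). *Cxcl1* (−2.65), *Ccl2* (−2.56) and *Cxcl2* (−5.21) had lower values without Tb-DOX replicate 4 but passed in no fit that left out 1 library. Between Tb-DOX and DOX, *Cxcl1* missed it with Tb replicate 5 in the fit (1.73 ± 1.12, adjusted p = 0.301) and passed without that library, which takes part only in the spread (1.73 ± 0.55, adjusted p = 0.0239). The same held for *Ccl7* (2.01 ± 0.89, adjusted p = 0.121 with it, and 2.01 ± 0.62, adjusted p = 0.0215 without it). Both values rested in part on Tb-DOX replicate 4, without which they were 0.81 for *Cxcl1* and 1.14 for *Ccl7*, and each passed in only 1 of the 21 fits that left out 1 library.

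*Cxcl1*, *Cxcl2* and *Cxcl3*, high together in Tb replicate 5, are textbook targets of the inflammatory factor NF-κB, so the stretch before each start site is shown for its matches to a κB motif, GGGNNTTTCC, on either strand. The sequences are from RefSeq on GRCm38.p6, another build than the table's, and read 5′ to 3′ on the plus strand, the 130 bases before each start, with matches in capitals. The windows are chr5:90891115-90891244, chr5:90903769-90903898 and chr5:90785971-90786100.
Cxcl1: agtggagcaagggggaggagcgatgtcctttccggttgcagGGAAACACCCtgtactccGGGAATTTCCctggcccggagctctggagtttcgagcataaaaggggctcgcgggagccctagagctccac
Cxcl2: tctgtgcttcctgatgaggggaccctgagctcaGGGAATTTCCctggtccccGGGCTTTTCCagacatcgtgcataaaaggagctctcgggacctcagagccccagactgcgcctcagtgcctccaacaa
Cxcl3: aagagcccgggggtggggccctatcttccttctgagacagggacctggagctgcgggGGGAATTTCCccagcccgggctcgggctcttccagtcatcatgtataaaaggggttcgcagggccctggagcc

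All 3 windows hold GGGAATTTCC, from base −71 in *Cxcl1*, −97 in *Cxcl2* and −73 in *Cxcl3*, and *Cxcl1* and *Cxcl2* hold a second match each. In the 250 bases before the start, 1.41% of 32851 promoters in the reference set hold the motif. Of the 57 members, 42 had a promoter there and 6 of these hold it, the other 3 being *Ccl9*, *Ccl20* and *Ccr3*. *Ccl20* had 0 counts in every library and *Ccr3* at most 3. *Cxcl5* was not matched. Motif and genes were chosen after the values were seen, and a match is a description of letters, not of binding.

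With DOX in both groups, the tumor went with higher levels of 10 of 24 tested members and lower levels of 0 by edgeR, where 17.5% of all genes tested passed (1332 higher, 1110 lower). DESeq2 called 11 higher and 0 lower, and 12 in edgeR had an unadjusted p under 0.05. The median log2 fold change between Tb-DOX and DOX was 0.91, against −0.008 over all genes. *Ccr1* had the largest log2 fold change of the tested members in this comparison, with counts of 35, 16, 57, 18 and 13 in DOX and of 536, 548, 307, 680 and 223 in Tb-DOX. The groups did not overlap, and the log2 fold change was 3.77 ± 0.47 (adjusted p = 1.15e-05). *Ackr1* rose by 2.65 ± 0.79 (adjusted p = 0.0247), a call lost without DOX replicate 4 or Tb-DOX replicate 4 (adjusted p up to 0.0718).

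Several members that DOX lowered without tumor were higher in Tb-DOX than in DOX. *Ccl21a* was higher by a log2 fold change of 0.98 ± 0.22 (adjusted p = 0.00404), with all Tb-DOX libraries above all DOX libraries in CPM. *Cxcr4* had Tb-DOX counts of 66, 65, 45, 94 and 81, above all DOX libraries, and was higher by 1.18 ± 0.25 (adjusted p = 0.00227). *Cxcl16* was higher by 1.08 ± 0.25 (adjusted p = 0.00473), beside *Zmynd15* at 1.84 (adjusted p = 0.00153). *Cxcl12* was higher by 0.83 ± 0.20 (adjusted p = 0.00681) and *Ccl24* by 2.19 ± 0.59 (adjusted p = 0.0133). *Ackr4* and *Ackr3* were not part of this pattern, with differences of 0.41 ± 0.50 (adjusted p = 0.606) and 0.14 ± 0.20 (adjusted p = 0.657). All of these comparisons share libraries with those above, DOX with the first and Tb-DOX with the second, and are no independent evidence of them. The interaction did not pass for *Cxcl16* (0.73 ± 0.34, adjusted p = 0.154), *Cxcl12* (0.27 ± 0.28, adjusted p = 0.542) or *Cxcr4* (0.99 ± 0.33, adjusted p = 0.0585). For these members a DOX effect that differs with the tumor was thus not shown. *Ccr1*, *Ccl21a* and *Cxcr4* were the members whose DOX and Tb-DOX groups did not overlap, where 14.5% of all genes tested did not.

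The other calls between Tb-DOX and DOX were on myeloid attractants. *Ccl6* was higher by 1.14 ± 0.35 (adjusted p = 0.0302), which was lost without DOX replicate 3 or 5 or Tb-DOX replicate 1 or 4 (adjusted p up to 0.0996). *Ccl12* had Tb-DOX counts of 12, 35, 23, 18 and 6 and was higher by 1.91 ± 0.64 (adjusted p = 0.0425), or 2.88 without DOX replicate 1. *Ccl8* counts were 8, 0, 3, 2 and 1 in DOX and 6, 16, 8, 39 and 6 in Tb-DOX, a log2 fold change of 2.10 ± 0.72 (adjusted p = 0.0474), which was 1.43 without Tb-DOX replicate 4 and 2.91 without DOX replicate 1. The *Ccl12* call was lost without any 1 of DOX replicates 2 to 5 or Tb-DOX replicates 2 to 4 (adjusted p up to 0.116), and that of *Ccl8* in 13 of 21 such fits, those without Control replicate 4, any 1 of DOX replicates 2 to 5, Tb replicates 1 to 4 or 6, or Tb-DOX replicates 2 to 4. The count of 10 was 6 without Tb-DOX replicate 4. Macrophage markers, 4 of 9 of them higher, summed to 90.8 to 182 CPM in Tb-DOX against 56.1 to 107 in DOX, and their part in these values was not tested.

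**Figure D5:**
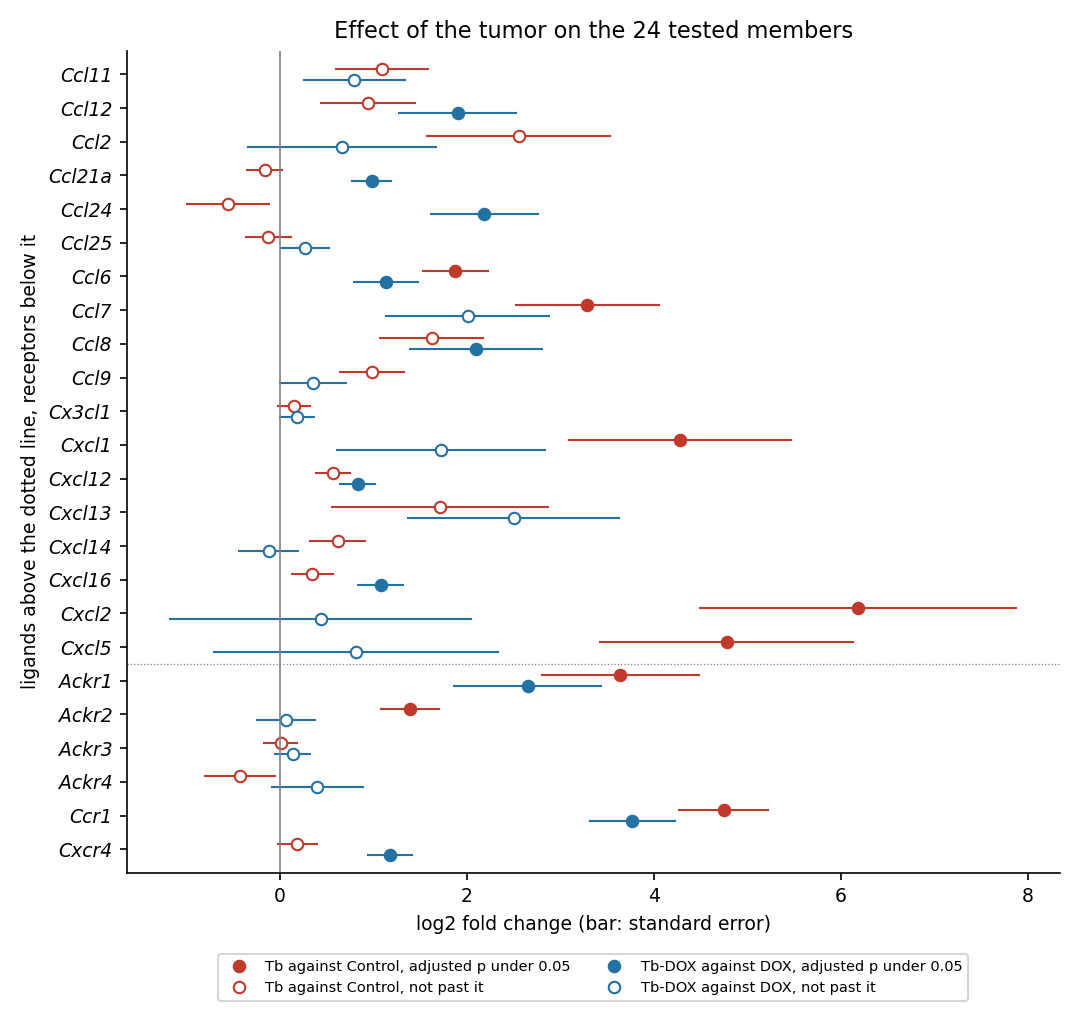
Log2 fold change with the tumor of the 24 tested members in saline-treated hearts (red, Tb against Control) and DOX-treated hearts (blue, Tb-DOX against DOX), with bars for the standard error and filled points for an adjusted p under 0.05. All 8 filled red and 10 filled blue points lie above 0, and *Cxcl1*, *Cxcl2* and *Cxcl5* have wide bars.

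The minimum of 0.5 FPKM left out long genes with moderate counts, so the members were also tested with a minimum set on counts (filterByExpr of edgeR, 15942 genes), which added 5 of them. *Cxcr1*, a receptor for neutrophil attractants, had 0 counts in all Control libraries and 1, 14, 14, 22, 27 and 78 in Tb (adjusted p = 0.00138), at least 7.58-fold higher when Control is set to 3 counts per library, or at least 4.62-fold without Tb replicate 6. Its Tb-DOX counts were 14, 16, 9, 16 and 9, and its DOX counts were 0 but for 6 in DOX replicate 5 (adjusted p = 0.0470). *Ccr10*, a receptor of skin- and mucosa-homing lymphocytes, had counts of 6, 7, 31, 23 and 16 in Control and of 2, 0, 0, 2 and 2 in DOX (adjusted p = 0.00209), so that DOX lay at the floor of 3 counts and no fold is given. Its counts were 5, 8, 14, 17 and 7 in Tb-DOX, above all DOX libraries (adjusted p = 0.0277), and 14, 15, 19, 9, 2 and 1 in Tb, and its interaction passed as well, higher (adjusted p = 0.0367). *Cxcr6*, the CXCL16 receptor, was lower in Tb-DOX than in DOX, with counts of 4, 17, 16, 18 and 33 in DOX and of 1, 5, 3, 7 and 6 in Tb-DOX (log2 fold change −2.30 ± 0.67, adjusted p = 0.0208). *Ccl28* passed in no comparison. With this minimum, 35.1% of all genes passed between DOX and Control, 4.33% between Tb-DOX and Tb, 6.72% between Tb and Control and 17.2% between Tb-DOX and DOX.

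In the edgeR fit of all 21 libraries, the tested members past the threshold in no comparison were *Ccl2*, *Ccl9*, *Ccl11*, *Ccl25*, *Cx3cl1*, *Cxcl13* and *Cxcl14*. Among them, *Ccl9* passed between Tb and Control under some alternatives, as given above. *Cx3cl1*, a membrane-bound ligand of endothelium and other cells, had 37 to 83 counts over the 21 libraries and log2 fold changes between −0.25 and 0.19 in the pairwise comparisons. *Cxcl13*, the B cell attractant, varied widely between libraries, with 0 to 59 counts in Tb and 14, 11, 0, 138 and 10 in Tb-DOX, so its log2 fold change of 2.50 ± 1.14 between Tb-DOX and DOX was not past the threshold (adjusted p = 0.134) and became 0.59 without Tb-DOX replicate 4, the library with 138 counts. *Cxcl14*, a ligand of resting epithelium and stroma, had a log2 fold change of −0.82 ± 0.31 between Tb-DOX and Tb (adjusted p = 0.132), which passed with array weights (adjusted p = 0.0120).

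Genes that act around the members were read from lists that were not picked by direction. Of 27 tested genes of chemokine receptor signaling, 18 rose and 0 fell between Tb and Control by edgeR, with 23 at an unadjusted p under 0.05 and 20 higher by DESeq2, where 6.28% of all genes tested passed. They include *Rac2*, the GTPase of leukocyte migration (log2 fold change 4.58, adjusted p = 5.47e-07), *Dock2*, its activator (2.14, adjusted p = 0.000112), and *Pik3cg*, the kinase below G protein-coupled receptors (2.24, adjusted p = 0.000377). Many of these genes are themselves leukocyte genes. The 10 neutrophil markers summed to 2.75 to 4.75 CPM in Control and 592 to 5518 CPM in Tb. The part of leukocytes in the higher signaling genes was not tested. Between DOX and Control 7 of the 27 passed, a lower share than the 36.2% of all genes tested, so the count is no result about the list: 2 rose and 5 fell, among the latter *Dock2* (−1.26, adjusted p = 0.0127) and the adaptor *Arrb2* (−0.93, adjusted p = 0.0163). Between Tb-DOX and DOX 16 rose and 0 fell by edgeR, with 18 at an unadjusted p under 0.05 and 17 higher by DESeq2, where 17.5% of all genes tested passed.

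Of 15 tested inducers of chemokine genes, 7 rose between Tb and Control, where 6.28% of all genes tested passed. Between DOX and Control 3 of the 15 rose, a lower share than the 36.2% of all genes tested, so the count is no result about the list. *Il1b*, a cytokine that induces *Cxcl1*, was at 2 to 9 counts in Control (median 3) and 71 to 551 in Tb (median 271) (log2 fold change 5.86, adjusted p = 3.03e-06), and the toll-like receptor gene *Tlr4* was higher in DOX than in Control (0.89, adjusted p = 0.000577). Of 6 tested family members that the naming rule leaves out, 1 was higher and 3 were lower in DOX than in Control. In this comparison 36.2% of all genes tested passed. *Ccrl2*, an atypical receptor that binds chemerin, rose from 88 to 114 counts in Control to 145 to 214 in DOX, with no overlap in CPM (log2 fold change 0.94, adjusted p = 0.0133). *Pf4*, a chemokine of platelets and some macrophages, fell from 38 to 85 counts in Control to 5 to 16 in DOX (log2 fold change −2.29, adjusted p = 0.000243). *Ppbp*, a platelet chemokine, was lower as well (−2.17, adjusted p = 0.0431). *Cx3cr1*, the receptor of *Cx3cl1* on resident macrophages, fell by 2.72 on the log2 scale (adjusted p = 0.00321), while its ligand had a value of −0.25 ± 0.19 (adjusted p = 0.330).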

How the data were processed

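Read counts and FPKM values per gene, both deposited by the authors, were taken from a single table of all libraries. Per the labels, the libraries were read as paired ends, and the study selected mRNA with oligo(dT) and trimmed with Cutadapt. The submitters' processing notes name HISAT2, HTSeq 0.6.1, DESeq2 1.34.0 and GRCm39, with no roles. The deposited FPKM values equal count, exonic length and library total combined in 100.0% of values (tolerance 0.00501). Libraries were grouped by title. Tests ran on the counts in edgeR 4.0.16 (R 4.3.3): TMM scaling (factors 0.881 to 1.14), 1 coefficient per group over all 21 libraries, genes whose FPKM averaged 0.5 or more (13990), quasi-likelihood F tests and Benjamini-Hochberg adjustment, called at an adjusted p under 0.05. Each SE is the fold change over the root of F. The test was tried on simulated data first.

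Members and lists were chosen with earlier results of these data known. Named were the members called in any of 5 comparisons (at most 15 each) and the most abundant member of each role; other genes were chosen after their values were seen. Replicates of a group differed by more than counting error (chi-square per degree of freedom at least 6.07). Alternatives were median-ratio scaling, library totals, other filters, robust moderation, array weights (limma 3.58.1), a replicate block, the compared groups alone, DESeq2 1.42.0, stricter thresholds and leaving out each library. Libraries held 13521200 to 18601445 counts, and a count of 0 allows up to 3 counts, for counting error only. Some genes of the family are not reported here.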

Additional observations from a re-analysis of the deposited data

Results flagged for a closer look

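The members named by the rule were looked over for a library far from the others of its group, by the gap to the nearest library divided by the range of the group on log2(CPM + 0.5). Of 80 groups 7 had such a library, with critical values of 0.71 for 5 libraries and 0.625 for 6, and chance alone marks about 1 in 20 groups. Tb replicate 5 was far above the other Tb libraries for 5 genes: *Cxcl5* (ratio 0.824), *Cxcl1* (0.806), *Cxcl2* (0.805), *Ccl2* (0.793) and *Ccl11* (0.654). The monocyte attractant and eotaxin are thus high in the library that holds the neutrophil attractants, and *Ccl11* had 159 counts there against 12 to 35 in the other Tb libraries. Tb-DOX replicate 4 was far above its group for *Cxcl2* (0.738). DOX replicate 5 was far below its group for *Ccl6* (0.758), with 66 counts against 208 to 305, and *Ccl9*, the neighboring CCR1 ligand, was also lowest there in DOX (23 counts against 123 to 180).

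For *Ccl21a* and *Ccl24* the effect of DOX differed between hearts with and without tumor by the interaction test of edgeR. The differences were 1.14 (log2, adjusted p = 0.0247) for *Ccl21a* and 2.75 (log2, adjusted p = 0.0286) for *Ccl24*.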

How the results depend on the processing

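Of 1013 values of the 32 calls of a member in a comparison under the alternatives, 891 kept direction and side of the threshold, 122 kept the direction only and 0 reversed; 15 calls passed under every alternative. The counts of called members moved as follows, and the cause was not tested unless the setting itself is a stricter threshold or filter. Between DOX and Control, 10 became 5 with a fold change of at least 1 (log2), 5 with an adjusted p under 0.01, and 6 to 11 with 1 library left out. With library totals it was 9, 0 higher and 9 lower, where the median of all genes shifted to −0.14. Between Tb-DOX and Tb, 2 became 4 with no filter, 1 with a mean FPKM of at least 1, 1 with only the groups compared, 4 with DESeq2, 8 with array weights, 1 with an adjusted p under 0.01, and 2 to 5 with 1 library left out. For the interaction, 2 became 1 with a mean FPKM of at least 1, 4 with DESeq2, 0 with an adjusted p under 0.01, and 1 to 3 with 1 library left out. Between Tb and Control, 8 became 5 with robust moderation, 4 with an adjusted p under 0.01, and 5 to 9 with 1 library left out (5 without Control replicate 3, 4 or 5). Between Tb-DOX and DOX, 10 became 5 with an adjusted p under 0.01 and 6 to 12 with 1 library left out. Without DOX replicate 4 and Tb replicate 5, chosen after seeing the data, the counts were 7, 2, 3, 6 and 9.

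Same-numbered libraries correlated at −0.261 to 0.233 in their deviations, so they share only a number and were not paired. With the replicate block the counts were 9, 3, 0 (interaction), 3 (Tb against Control) and 7, and 11 of the 32 calls lost the threshold; Tb replicate 6 has no partner and drops out of that fit.

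Members with few counts, 21 with at most 10 in every library, are limited by depth.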
